A study of Mus musculus with 5 samples.

Results

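The myogenic regulatory factors Myod1, Myf5, Myf6 and Myog were taken by symbol from the GENCODE vM1 annotation of the mouse mm9 genome, which gave 4 genes out of 22350 protein-coding genes on the 20 chromosomes with peaks. Their start sites and gene bodies were set against lists of peaks of H3K27me3, the histone mark made by Polycomb Repressive Complex 2 (PRC2). The lists came from mouse embryonic fibroblasts (MEFs) profiled by ChIP-Seq, in which chromatin bound by an antibody is sequenced. These cells were derived from an embryo with a floxed allele of Eed, a PRC2 subunit gene, and all 3 groups used here carry that allele without recombination by Cre. They were transduced with lentivirus for stable expression of H3.3 K27R, of H3.3 K27M or of human EZHIP, and selected as lines. The promoter in the vector is that of a housekeeping elongation factor gene, so that expression is not limited to a cell type. H3.3 K27M is the glioma oncohistone and EZHIP the ependymoma protein that inhibit PRC2. H3.3 K27R, in which arginine takes the place of the lysine, served as the reference. Peaks of the K27M and EZHIP lists are called residual below. Each group had 1 library, the lists hold positions without heights or read counts, and the depth is unknown, so that every comparison describes these libraries and none could be tested against replicate spread. Parental cells and cells with Eed deleted were not analysed here.

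The myogenic regulatory factors are basic helix-loop-helix transcription factors that bind E-boxes (CANNTG) as dimers with E proteins and switch on the skeletal muscle program. Myf5 and Myod1 commit mesodermal progenitors to the muscle lineage, Myf6 acts both in early commitment and in later fibers, and Myog drives the differentiation of myoblasts into multinucleated myotubes. Fibroblasts do not normally express them, and forced expression of Myod1 converts fibroblasts into muscle cells. Genes of lineages other than the cell's own are common targets of PRC2, which is recruited to CpG islands, where CG dinucleotides are dense, and spreads its mark from there.

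Of the 4 genes, Myod1 alone had its start site in a peak, and it did so in all 3 lists. Myog lay in a short opening between a pair of K27R domains. Myf5 and Myf6, which are neighbors, lay in a long stretch without peaks. The 4 genes therefore represent 3 loci.

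The bases just upstream of the start sites and those of the CpG islands nearest to the residual peaks are shown first, since the members differed in their content of CG. Each promoter holds 250 bases that end just before the annotated start, read from the mm9 sequence in the direction of transcription, with CG in capitals.
Myod1 (chr7:53631594-53631843, plus strand): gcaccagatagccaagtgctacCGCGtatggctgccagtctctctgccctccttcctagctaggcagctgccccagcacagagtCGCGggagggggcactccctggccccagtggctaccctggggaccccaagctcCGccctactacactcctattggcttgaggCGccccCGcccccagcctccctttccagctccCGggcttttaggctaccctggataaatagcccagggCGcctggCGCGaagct
Myf5 (chr10:106923191-106923440, minus strand): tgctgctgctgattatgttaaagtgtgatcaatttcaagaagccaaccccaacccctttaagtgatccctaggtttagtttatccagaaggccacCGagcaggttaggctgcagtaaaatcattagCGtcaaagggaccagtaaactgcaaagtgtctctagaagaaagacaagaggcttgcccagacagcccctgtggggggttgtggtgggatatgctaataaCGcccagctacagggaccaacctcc
Myf6 (chr10:106931786-106932035, minus strand): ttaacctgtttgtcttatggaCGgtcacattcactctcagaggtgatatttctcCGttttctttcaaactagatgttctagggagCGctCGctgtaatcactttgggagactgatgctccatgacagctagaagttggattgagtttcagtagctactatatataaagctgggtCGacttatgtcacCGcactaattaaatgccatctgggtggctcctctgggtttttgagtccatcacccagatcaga
Myog (chr1:136186331-136186580, plus strand): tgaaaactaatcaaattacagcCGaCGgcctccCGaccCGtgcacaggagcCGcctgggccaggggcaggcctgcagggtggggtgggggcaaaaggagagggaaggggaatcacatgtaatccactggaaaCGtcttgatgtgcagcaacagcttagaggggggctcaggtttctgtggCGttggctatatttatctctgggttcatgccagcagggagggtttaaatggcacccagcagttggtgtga

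The Myod1 promoter held 11 CG dinucleotides, that of Myog 7, that of Myf6 6 and that of Myf5 3, where the median of all 22350 promoters was 8. Within 1 kb on each side of the start site, Myod1 had 91 CG, Myf5 49, Myog 44 and Myf6 33, against a median of 61 (quartiles 23 and 99) over all genes. Only Myod1 exceeded the median on either measure, and it had more CG in this window than 69.9% of genes. An E-box lay in the promoters of Myod1 (2 matches), Myog (2 matches) and Myf6 (1 match), on either strand, and 63.6% of all promoters held at least 1. The letters CAGCTG, an E-box counted among these, were found in Myod1 alone (11.8% of all promoters), and TATAAA in Myf6 alone (12.3% of all promoters). Myf6 also had 1 exact match to the consensus of MEF2, a partner of these factors, which 2.94% of promoters held. This match, ctatatataa, overlaps the TATAAA, so that they are not separate stretches. The Myog promoter holds ctatatttat, which misses the pattern searched only at its last base. The exact search therefore does not show that Myog lacks such a site.

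A CpG island was found within 1 kb of the start site in Myod1 and in none of the other members, where 54.0% of all genes had one. The Myod1 island (chr7:53632056-53632647, 592 bp, 57 CG) began 0.212 kb downstream of the start site and lay wholly in the coding part of exon 1. The island nearest to Myog lay 8.89 kb downstream of its start, inside the neighboring gene Ppfia4 (chr1:136195473-136196027, 555 bp, 55 CG), which encodes a liprin scaffold protein. The nearest island to Myf5 was 119 kb away. Stretches of 250 bases from both islands that lay in residual peaks are shown, from the plus strand of mm9, with CG in capitals. The Myod1 stretch is coding sequence, while the Ppfia4 stretch holds 100 coding bases and is otherwise intronic.
Myod1 island (chr7:53632227-53632476): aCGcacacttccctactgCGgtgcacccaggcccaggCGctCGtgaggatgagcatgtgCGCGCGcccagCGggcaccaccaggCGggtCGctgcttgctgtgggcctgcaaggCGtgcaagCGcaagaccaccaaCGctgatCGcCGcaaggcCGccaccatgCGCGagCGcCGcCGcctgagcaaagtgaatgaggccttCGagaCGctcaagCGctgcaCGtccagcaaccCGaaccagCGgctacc
Ppfia4 island (chr1:136195718-136195967): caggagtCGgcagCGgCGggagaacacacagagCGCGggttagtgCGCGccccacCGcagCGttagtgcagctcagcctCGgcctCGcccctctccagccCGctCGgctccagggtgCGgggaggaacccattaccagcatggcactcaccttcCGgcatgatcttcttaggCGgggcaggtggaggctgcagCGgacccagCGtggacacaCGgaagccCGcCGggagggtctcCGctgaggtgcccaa

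The Myod1 stretch held 27 CG and the Ppfia4 stretch 22 CG in the same length. Each was denser in CG than any of the 4 promoters, which their choice from islands favors, since islands are defined by the density of CG.

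**Figure D1:**
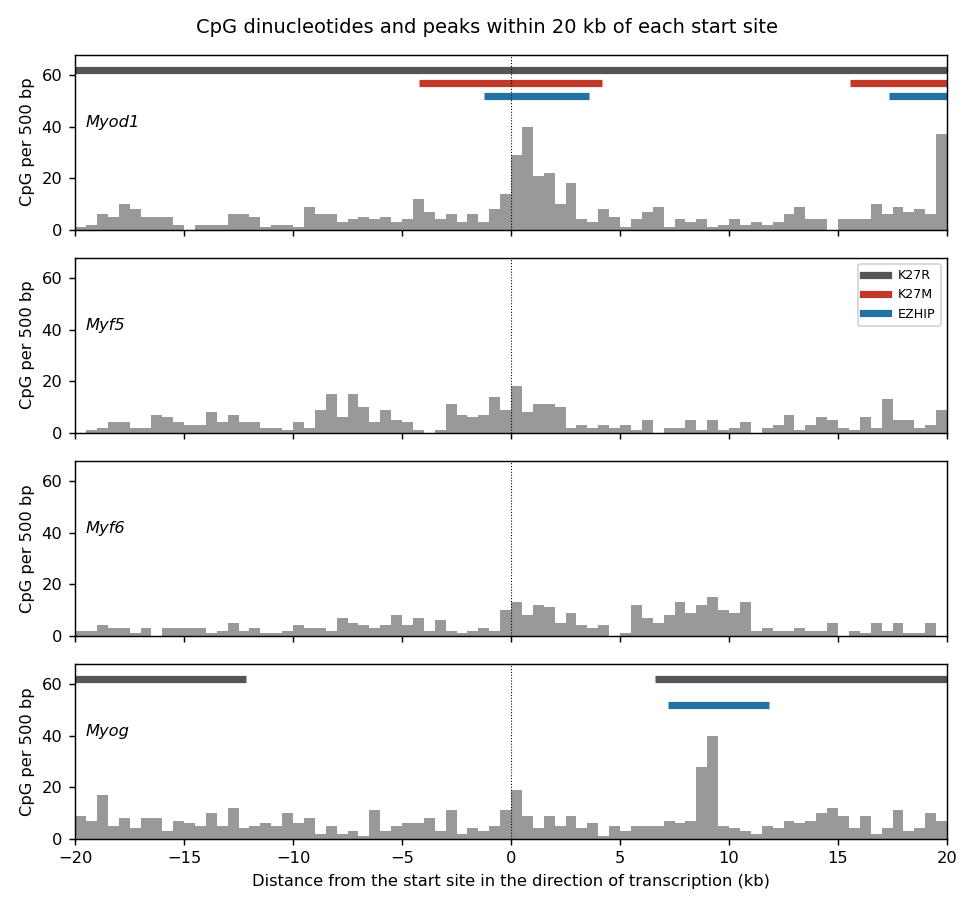
CG dinucleotides per 500 bp (gray bars) within 20 kb of each start site, in the direction of transcription, with the peaks of the K27R, K27M and EZHIP lists as horizontal lines above them. The Myod1 start lies in peaks of all 3 lists beside a rise to 40 CG per 500 bp, Myog has a rise of the same height 9 kb downstream under an EZHIP peak and a K27R peak, and Myf5 and Myf6 have no peak.

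The start sites were first compared with the peaks to ask which members carried the mark in the reference cells and which kept it. In K27R the start site of 1 of 4 members lay in a peak, where 30.1% of all protein-coding genes had theirs in one. In K27M it was 1 of 4 members against 9.02% of genes, and in EZHIP 1 of 4 against 7.73%. The member was Myod1 in each list. A start site in all 3 lists was found in 6.6% of genes, and the start sites of the other 3 members were, like those of 69.8% of genes, in no list.

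Gene bodies gave the same division. Myod1 (ENSMUSG00000009471.3, chr7:53631844-53634462, plus strand, 3 exons) was covered over its whole 2.62 kb by a K27R, a K27M and an EZHIP peak. Whole cover of the gene body was found for 20.1% of genes in K27R, 2.78% in K27M and 1.82% in EZHIP. Myf5 (ENSMUSG00000000435.1, chr10:106919964-106923190, minus strand), Myf6 (ENSMUSG00000035923.3, chr10:106929916-106931785, minus strand) and Myog (ENSMUSG00000026459.4, chr1:136186581-136189124, plus strand), each with 3 exons, had 0 kb covered in every list. Some cover of the gene body was found for 36.1% of genes in K27R, 11.5% in K27M and 10.6% in EZHIP.

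Myod1, the factor able to turn fibroblasts into muscle, sat inside a K27R domain of 293.8 kb (chr7:53394601-53688400). This domain reached 237 kb upstream and 56.6 kb downstream of the Myod1 start. It also held the start sites of Abcc8 (a regulatory subunit of potassium channels), Ush1c and Otog (genes of the inner ear) and Kcnc1 (a voltage-gated potassium channel). In K27M the peak over Myod1 spanned 8.4 kb (chr7:53627601-53636000) and in EZHIP 4.8 kb (chr7:53630601-53635400). The median K27M peak was 6.8 kb wide, while the median EZHIP peak measured 4.4 kb. Both residual peaks over Myod1 were thus somewhat wider than the median of their list. EZHIP peaks were narrower across the lists, so that this contrast is not particular to Myod1. For K27R peaks the median width was 16 kb, far below that of the Myod1 domain.

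The edges of these peaks differed mainly on the upstream side. The K27M peak reached 4.24 kb upstream and 4.16 kb downstream of the Myod1 start site. The EZHIP peak reached 1.24 kb upstream and 3.56 kb downstream, so that most of it lay over the gene. Both residual peaks held the whole exon 1 island, and they were denser in CG than is usual for their lists: 24.6 CG per kb in K27M, where the median peak had 15.6, and 35.0 CG per kb in EZHIP, where the median peak had 13.8.

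Myod1 has known enhancers upstream, among them a distal regulatory region near the gene and a core enhancer farther away. Positions 5 kb and 20 kb upstream of the start site were therefore looked up as stand-ins for these elements. Both positions lay in the K27R domain and in neither residual list. The position 5 kb upstream was 0.757 kb from the K27M peak and 3.76 kb from the EZHIP peak, and the position 20 kb upstream was 15.8 kb and 18.8 kb away.

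Over the whole Myod1 domain, K27M kept 3 peaks with 28.6 kb in all (9.73% of the domain) and EZHIP kept 3 peaks with 16.4 kb (5.58%). All 3 EZHIP peaks lay inside the K27M peaks. They stood over the start sites of Abcc8, Myod1 and Kcnc1, while those of Ush1c and Otog lay in no residual peak. Among the 1310 autosomal K27R domains of at least 100 kb, 59.5% kept peaks in both lists, and the median share covered was 3.57% in K27M and 3.83% in EZHIP. The domain held 5 CpG islands. The 3 under residual peaks were 592, 769 and 2102 bp long, and the 2 outside them 287 and 395 bp. Over all islands in K27R peaks, 60.3% of those of 500 bp or longer and 37.1% of shorter ones met a K27M peak, and 51.6% and 30.3% met an EZHIP peak.

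The retention of Myod1 was read against other marked genes. Of the 6735 genes with a start site in a K27R peak, 29.9% had it in a K27M peak as well and 25.6% in an EZHIP peak. Among the 3031 of these with an island within 1 kb, as Myod1 has, the shares were 52.6% and 44.6%, and 40% had the start site in both. Among the 3704 without such an island they were 11.3% and 10%.

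Myog, the differentiation factor, was free of peaks over its gene but had K27R domains on both sides. One domain of 159.8 kb (chr1:136014601-136174400) ended 12.2 kb upstream of the Myog start site, and another of 31.8 kb (chr1:136193201-136225000) began 6.62 kb downstream. The opening between them spanned 18.8 kb (chr1:136174401-136193200). Of all protein-coding genes, 280 (1.25%) had their start site in an opening this short or shorter between K27R peaks. Only the 15615 genes with the start site outside K27R peaks could be counted here. The opening of 18.8 kb is longer than the 10000 bp up to which neighboring peaks were joined in an alternative, which therefore could not close it.

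The upstream K27R domain of Myog held the start sites of Adora1 (an adenosine receptor), Chi3l1 (a secreted glycoprotein) and Mybph (a myosin-binding protein of skeletal muscle). In both inhibitor lists a peak was kept over the Adora1 start site, of 5.0 kb in K27M and 4.8 kb in EZHIP, more than 50 kb from Myog. Chi3l1 and Mybph lay in no residual peak. EZHIP had another small peak of 1.6 kb in this domain (chr1:136138601-136140200), outside genes, with no island and 8 CG. The K27M cover made up 3.13% of the domain and the EZHIP cover 4.01%.

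The downstream domain of Myog separated the inhibitors. EZHIP had a peak of 4.6 kb in it (chr1:136193801-136198400), which began 7.22 kb downstream of the Myog start site, and K27M had none. The peak lay wholly inside Ppfia4 near its 3′ end, 42.7% over exons and 57.3% over introns, and it held the island of 555 bp shown above. It had 106 CG, or 23.0 per kb. The annotated start of Ppfia4 lay 42.9 kb downstream of Myog and in no peak of any list. The nearest K27M peak to Myog was the one at Adora1, 51.8 kb upstream. Whether the mark is absent there in K27M or lies below the threshold of the peak calls cannot be seen from positions alone.

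Myf5 and Myf6 showed no H3K27me3 peak in any of the lines over a long distance. Their start sites are 8.6 kb apart on the same strand, and Myf6 lies upstream of Myf5. Both were in an opening of 659 kb between K27R peaks (chr10:106840001-107499200). Of the 15615 genes with the start site outside K27R peaks, 11414 (51.1% of all genes) had it in an opening this short or shorter. The nearest K27R peak was 83.2 kb downstream of Myf5 and 91.8 kb downstream of Myf6. It was 8.8 kb wide (chr10:106831201-106840000), lay in an intron of Lin7a, held no island and had 6.7 CG per kb, where the median K27R peak had 8.33.

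Residual peaks were farther still from Myf5 and Myf6. The nearest K27M peak was 1522 kb upstream of Myf5 and 1514 kb upstream of Myf6, and the nearest EZHIP peak 1913 kb and 1921 kb downstream. Of all genes, 10.6% were farther from a K27M peak than Myf5, and 9.31% were farther from an EZHIP peak. By distance to the nearest K27R peak the order of the members was Myod1, Myog, Myf5 and Myf6. In EZHIP it was the same, with Myog at 7.22 kb. In K27M Myog was at 51.8 kb and Myf6 came before Myf5. Without replicates no spread could be set against these distances.

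**Figure D2:**
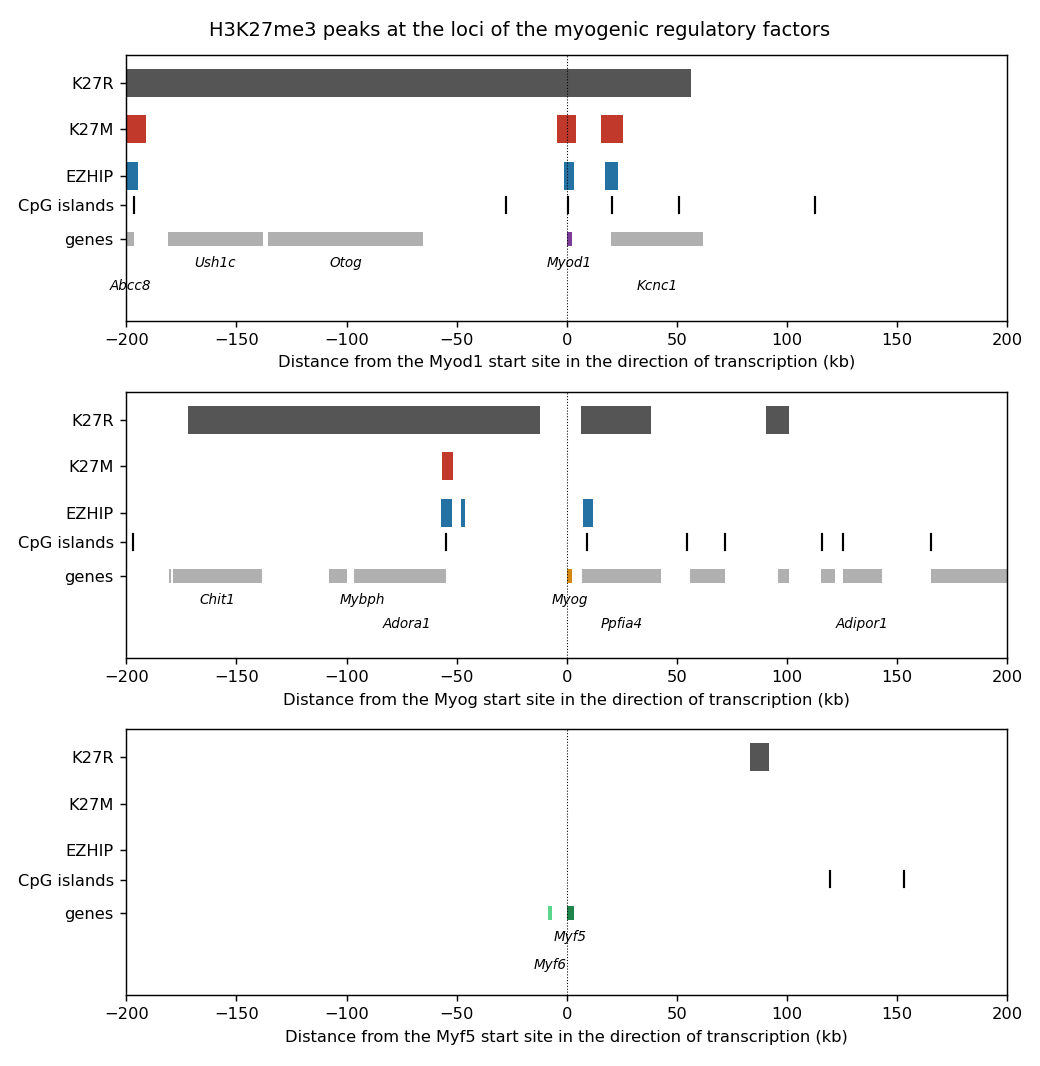
Peaks of the K27R, K27M and EZHIP lists within 200 kb of the start sites of Myod1, Myog and Myf5 (dotted line at 0; distances in kb in the direction of transcription), with CpG islands as ticks and the protein-coding genes whose start sites lie in the window as bars (Myf6 stands upstream of Myf5). Inside the K27R domain over Myod1 short peaks remained at Myod1 and Kcnc1, Myog stands in the 18.8 kb opening between K27R domains, and the Myf5 panel has a single K27R peak.

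The length covered within 50 kb on each side of the start site placed the members among all genes. Around Myod1 the K27R domain covered all 100 kb, while K27M peaks covered 18.6 kb and EZHIP peaks 11.0 kb. The residual cover came from the peaks at Myod1 and at Kcnc1, and 6.81% of genes had more cover in K27M and 9.02% in EZHIP. Around Myog the cover was 69.6 kb for K27R, 0 kb for K27M and 6.2 kb for EZHIP, and 16.7% of genes had more cover in K27R and 14.2% in EZHIP. Around Myf5 and Myf6 nothing was covered in any list, which held for 35.9% of all genes. Some cover in this window was found for 64% of genes in K27R, 24.3% in K27M and 25.2% in EZHIP. The median over all genes was 14.8 kb for K27R and 0 kb for both inhibitors.

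**Figure D3:**
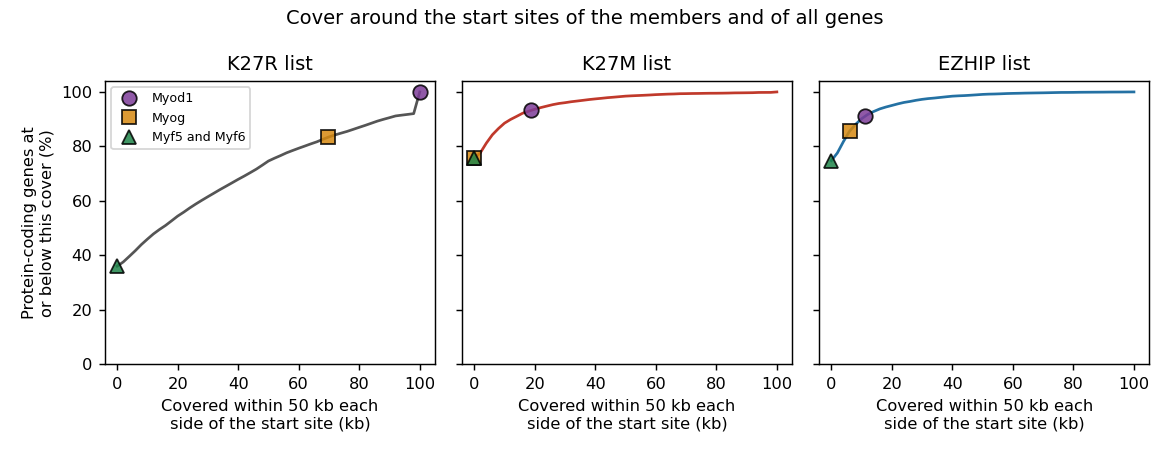
Share of the 22350 protein-coding genes (y axis, %) with at most a given covered length within 50 kb on each side of the start site (x axis, kb) in the K27R, K27M and EZHIP lists, with the members as points on the curves. Myod1 is at 100, 18.6 and 11.0 kb, Myog at 69.6, 0 and 6.2 kb, and Myf5 and Myf6 share the point at 0 kb.

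Genes on other chromosomes with the most similar peak profile were found by the Jaccard index (shared over joint covered bins) of the 1503 bins of 200 bp within 50 kb of the start site, joined over the 3 lists. For Myod1 these were Slc25a48 on chromosome 13 (index 0.879), Pdyn on chromosome 2 (0.862) and Chrnb4 on chromosome 9 (0.862). Their windows were, like that of Myod1, covered over 100 kb in K27R, and 92.4% of genes had less cover than this. Since residual peaks covered only 18.6 kb (K27M) and 11.0 kb (EZHIP) around Myod1, the index here mainly reflects the K27R list. Slc25a48 had 11.6 kb covered by K27M and 9.8 kb by EZHIP peaks, and Pdyn 6.2 kb and 7.0 kb, with the start site in peaks of all 3 lists. Chrnb4 had its start site in K27R alone. For Myog the most similar were Ager on chromosome 17 (0.851), Ssxb10 on chromosome X (0.834) and Gm14196 on chromosome 11 (0.770). None of these had its start site in a peak or any K27M or EZHIP cover in the window, so that they resembled Myog in K27R and lacked its EZHIP peak. The index was not computed for Myf5 and Myf6, whose windows were empty.

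Genes that act around the myogenic factors were then counted in 4 lists: upstream regulators, DNA-binding partners, inhibitors and muscle targets. Of the 15 upstream regulators, which set up the expression of the myogenic factors in somites, limbs and head, 10 had the start site in a K27R peak (66.7%), 8 in a K27M peak (53.3%) and 7 in an EZHIP peak (46.7%). All genes gave 30.1%, 9.02% and 7.73%. The widest residual peaks over a start site in this list were those of Lbx1, a homeobox gene of migrating limb muscle precursors, with 124.2 kb in K27M and 113.4 kb in EZHIP. Pax7, the marker of satellite cells, had 70.6 kb and 53.2 kb. Tcf21, a factor of head muscle and fibroblasts, had 55.2 kb in K27M and 17.4 kb in EZHIP. All of these were wider than the residual peaks over Myod1.

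Pax3, which acts upstream of Myf5 and Myod1 in the somite, was the single upstream regulator with a start site in 1 of the inhibitor lists only. Over all genes, 2.39% had the start site in K27R and K27M peaks without an EZHIP peak, and 1.11% the reverse. Its start site lay in a K27R peak of 67.8 kb and a K27M peak of 38.6 kb, while the nearest EZHIP peak was 113 kb away. Eya2 and Msc had the start site in a K27R peak alone, as did 20% of all genes.

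Muscle targets, the genes of contraction, excitation and fusion that the myogenic factors switch on, were set against the same shares of all genes. Of 35 targets, 21 had the start site in a K27R peak (60%), 3 in a K27M peak (8.57%) and 1 in an EZHIP peak (2.86%), where all genes gave 30.1%, 9.02% and 7.73%. The K27M share of the targets was thus near that of all genes. With a peak allowed up to 5 kb from the start site, the targets were 5 in K27M and 4 in EZHIP (14.3% and 11.4%), and all genes gave 11.4% and 11.2%. Of the targets marked in K27R, 14.3% had the start site in a K27M peak and 4.76% in an EZHIP peak, against 29.9% and 25.6% of all marked genes and 80% and 70% of the marked upstream regulators. An island lay within 1 kb of the start site in 2 of the 21 marked targets and in 8 of the 10 marked upstream regulators. Of all marked genes without an island, 11.3% had the start site in a K27M peak, near the 14.3% of the targets, and 10% in an EZHIP peak. The lists differ in this feature, and its part in the result was not tested. The median cover within 50 kb of the start site in K27R was 51.2 kb for targets and 52.9 kb for upstream regulators, against 14.8 kb for all genes.

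Acta1, the skeletal muscle actin, was the target with a peak over the start site in all 3 lists, with a width of 47.0 kb for K27R, 10.4 kb for K27M and 4.8 kb for EZHIP. The last was as wide as the EZHIP peak over Myod1. No island lay within 1 kb of the Acta1 start. Cacna1s, the calcium channel of excitation-contraction coupling, had its start site in a K27M peak of 6.2 kb and 1.13 kb outside an EZHIP peak. Jph1, a junctophilin of the same machinery, had a K27M peak of 6.0 kb and its nearest EZHIP peak 1204 kb away.

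The 21 marked targets lay in 16 K27R peaks, so that they are not independent of one another. A single K27R domain of 330.4 kb (chr11:66880801-67211200) held the start sites of the myosin heavy chain genes Myh1, Myh2, Myh3, Myh4 and Myh8. The gene families below were singled out after their values were seen. Of the 7 listed troponin genes, 0 had the start site in a K27R peak, where 30.1% of all genes did. Their nearest K27R peaks were 7.45 to 4891 kb away. Even so, K27R peaks covered 67.2% of the Tnni1 gene body. Within 50 kb of the Tnnt2 and Tnnt1 start sites they covered 77.7 kb and 53.0 kb. Tnni2 and Tnnt3 lay 4834 kb and 4891 kb from a K27R peak, and farther from K27M and EZHIP peaks. All 6 listed myosin heavy chain genes and all 4 listed subunits of the acetylcholine receptor had the start site in a K27R peak. Of these 10 start sites, 0 lay in a K27M or EZHIP peak, lists that held 9.02% and 7.73% of all start sites. Of all genes marked in K27R, 29.9% had the start site in a K27M peak and 25.6% in an EZHIP peak. Without an island within 1 kb, these shares were 11.3% and 10%, and among the 10 only Chrnb1 had such an island. With so few start sites, a count of 0 is near the shares without an island. Its distance from 29.9% and 25.6% was not tested. Residual peaks were nevertheless near 2 of the 10. Myh3, the embryonic myosin heavy chain, had 41.7% of its gene body covered in K27M and 34.2% in EZHIP, with the start site 2.6 kb and 4.2 kb outside these peaks. The start site of Chrnb1, a subunit of the acetylcholine receptor, was 2.36 kb from a K27M peak and 4.16 kb from an EZHIP peak.

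Partners and inhibitors of the myogenic factors had start sites in K27R peaks about as often as all genes (30.1%). Of 7 partners (Mef2 genes and E proteins), 2 had the start site in a K27R peak (28.6%), Mef2b and Tcf3, and 0 in K27M or EZHIP. Of 13 inhibitors, 3 had it in K27R (23.1%), 2 in K27M (15.4%) and 1 in EZHIP (7.69%). All genes gave 9.02% in K27M and 7.73% in EZHIP, and counts this small do not set either list apart from them. Mdfi, which holds myogenic factors in the cytoplasm, kept 11.8 kb in K27M and 8.8 kb in EZHIP. Hey1, a transcriptional repressor induced by Notch, kept 5.8 kb in K27M and had its nearest EZHIP peak 420 kb away. Mstn, the secreted inhibitor of muscle growth, lay in K27R alone.

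The labelled cell type was checked with 13 genes typical of fibroblasts, such as collagens, fibronectin and vimentin. The start site of 1 of the 13, Pdgfra, lay in a peak, whose width was 35.2 kb for K27R, 11.8 kb for K27M and 7.0 kb for EZHIP. The start sites of the other 12 lay in no peak. The share of markers in a peak was 7.69% in each list. It was below the 30.1% of all genes in K27R and near the 9.02% and 7.73% in K27M and EZHIP. The difference in K27R rests on a count of 1 of 13 and was not tested.

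**Figure D4:**
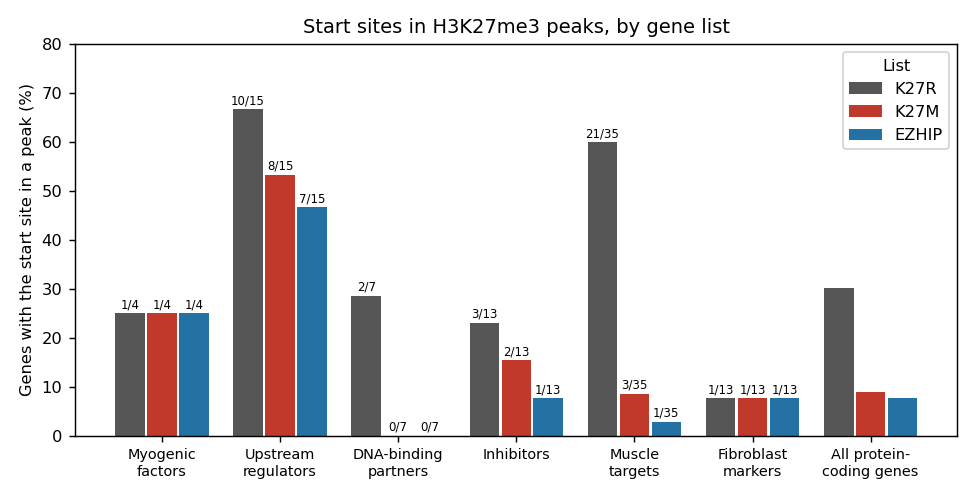
Share of genes with the start site in a peak (y axis, %) in the K27R, K27M and EZHIP lists for the 4 myogenic factors, the 4 lists of related genes, fibroblast markers and all protein-coding genes, with counts above the bars. Upstream regulators and muscle targets are alike in K27R (10 of 15 and 21 of 35) and apart in K27M (8 and 3) and EZHIP (7 and 1).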

How the data were processed

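H3K27me3 ChIP-Seq of MEFs was deposited by the authors as 1 list of peak positions per library (chromosome, start, end). By the study's methods and the submitters' processing notes, reads were aligned with Bowtie 1.0.0 to mm9 and to a spike-in genome, and broad peaks were called with MOSAiCS-HMM. Which library served as background, and whether the spike-in entered the calls, is not given in the sources used here. The lists carry no height, score or p-value, and depth is unknown. The antibody label reads H2K27me3 where the titles read H3K27me3. Every boundary lay on a 200 bp grid, and peaks were taken as whole bins. The study's methods state a single maximum gap of 10000 bp for the H3K27me3 calls. The shortest gap between neighboring peaks was 0 bp in K27R, 5200 bp in K27M and 1200 bp in EZHIP, each below that setting. The distance up to which enriched bins were joined may therefore differ from the stated one and between lists, which bears on peak widths and counts. Groups came from the titles.

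Start sites were the 5′ ends of protein-coding genes in GENCODE vM1, which with NCBIM37 (mm9) needed no conversion. Each peak list ended inside the mm9 chromosome lengths. CpG islands scored 17 per CG and -1 per other base, and were kept above 200 bp, from 50% G+C and above 0.6 of the CpG expected from base content, without repeat masking (23682 islands). The number of islands depends on details of scoring, and without the penalty for the G of a CG, an alternative chosen after seeing the data, it was 27080. The target list lost Mymx, which did not match a symbol, and Tnnc1, which matched more than once, was taken as the entry with most annotated parts. Genes were named by rule: members, neighbors within 200 kb, listed genes in 1 of K27M and EZHIP only, up to 4 with the widest residual peak, and the 3 most similar profiles. The values of some listed genes are not reported here. Members and lists were chosen with earlier results of these data known. Alternatives were minimum widths of 2000 and 5000 bp, merging up to 10000 bp, other start definitions, other windows and longer islands. Tools were Python 3.11.15, numpy 2.4.6, scipy 1.17.1, numba 0.67.0 and matplotlib 3.10.9, and interval and island code was tested on simulated data.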

Additional observations from a re-analysis of the deposited data

How the results depend on the processing

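Of 224 alternative values, 197 stayed within 1.5 times the main value (or, for shares, within its 95% exact binomial interval over 200 bp bins, which covers counting error only) and 27 moved. Some of the 197 were fixed in advance, such as the 293.8 kb width of the K27R domain over Myod1 under minimum widths of 2000 and 5000 bp. With peaks of at least 5000 bp, the 4.8 kb EZHIP peak over Myod1 dropped out by construction: 0 members had a start site in EZHIP, 0% of the gene body was covered, the nearest peak was 17.4 kb away and cover within 50 kb fell to 6.2%. The EZHIP peak near Myog dropped out too, leaving 0% cover and a nearest peak at 350 kb. The nearest peaks then lay 2966 kb (K27M) and 4427 kb (EZHIP) from Myf5, and 2958 kb and 4436 kb from Myf6. With at least 2000 bp, EZHIP peaks lay 3526 kb from Myf5 and 3518 kb from Myf6. Adding 5 kb to both ends of Myod1 gave 66.6% cover in K27M and 38.0% in EZHIP. With 10 kb windows, cover was 42% (K27M) and 24% (EZHIP) at Myod1, and 16.9% (K27R) and 13.9% (EZHIP) at Myog. With 100 kb windows it was 78.3% (K27R), 9.3% (K27M) and 5.5% (EZHIP) at Myod1, 64.6% (K27R) and 2.5% (K27M) at Myog, and 4.4% and 4.11% (K27R) at Myf5 and Myf6. Allowing 5 kb to the start site gave 5 targets in K27M and 4 in EZHIP, or 14.3% and 11.4%, where all genes gave 11.4% and 11.2%. Merging peaks up to 10000 bp apart moved none of the members' values beyond these limits. CpG islands scored without the penalty for the G of a CG, chosen after seeing the data, left the counts of members (1), marked targets (2) and marked upstream regulators (8) with an island as they were, and 55.1% of all genes then had one. With depth unknown, no limit of detection could be given.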
